A study of Mus musculus with 2 samples.

Results

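A set of 10 genes that encode the enzymes and the transporter through which myeloid cells use arginine and tryptophan and make itaconate were followed across the leukocytes of early melanomas, to ask which cells held Arg1, Nos2, Ido1 and Acod1 and whether these transcripts were found in the same cells. The 10 members, Arg1, Arg2, Nos2, Slc7a2, Ass1, Odc1, Ido1, Il4i1, Acod1 and Kmo, were matched by symbol among the 31053 genes of the deposited matrices, and each symbol had 1 entry. They were read in 9798 cells that held 500 to 15000 unique molecular identifiers (UMIs, each standing for 1 captured RNA molecule), 200 to 4000 genes and at most 10% mitochondrial UMIs, out of 11651 called cells.

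CD45+ leukocytes were sorted from subcutaneous tumors grown for 4 days in C57BL/6 hosts aged 8 weeks, and single-cell RNA-seq was run on 1 library per group. In both groups the tumors came from Ptgs-deficient melanoma cells, which lack the cyclooxygenases that start prostaglandin synthesis. The control hosts were untreated, and the NK cell-depleted hosts received anti-NK1.1 (clone PK136, 200 µg) and anti-asialo GM1 (30 µg) on days 0 and 2 of tumor growth. Each library was made from pooled tumors, so animals cannot be told apart, and parental melanoma cells had been added to both. The genotype field of both samples reads wildtype for the tumor cells, whereas their titles and the design of the series name the deficient cells. This conflict touches both groups alike. Asialo GM1 is also carried by some cells other than NK cells. With 1 library per group there is no replicate and no test of a group difference. All intervals below are 95% intervals that cover counting error only.

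Arginine enters macrophages through cationic amino acid transporters such as the product of Slc7a2, and is then split by arginase 1 (Arg1) in the cytosol or arginase 2 (Arg2) in mitochondria into ornithine and urea, or oxidised by inducible nitric oxide synthase (Nos2) to citrulline and nitric oxide. Ornithine decarboxylase (Odc1) takes ornithine on to polyamines, and argininosuccinate synthase (Ass1) returns citrulline towards arginine. Indoleamine 2,3-dioxygenase (Ido1) opens the kynurenine route of tryptophan, kynurenine monooxygenase (Kmo) acts further along it, and Il4i1 encodes a secreted amino acid oxidase that uses phenylalanine and tryptophan. Aconitate decarboxylase (Acod1, also called Irg1) makes itaconate from a citric acid cycle intermediate. Arg1 and Nos2 are often used as markers of opposite macrophage states, and loss of arginine or tryptophan is a known way in which myeloid cells restrain T cells.

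In the GENCODE M21 annotation of GRCm38, the build named mm10 in the submitters' notes, all 10 members were protein-coding genes. Arg1 lies at chr10:24915221-24927484 on the minus strand, Nos2 at chr11:78920787-78960254 on the plus strand, Ido1 at chr8:24584136-24597009 on the minus strand and Acod1 at chr14:103046977-103056573 on the plus strand. Il4i1 (chr7:44816387-44840809) overlaps Nup62 on the same strand, and a read in the shared stretch cannot be told apart, so its counts carry that uncertainty. No other member overlapped a coding gene on its own strand. Arg2 lies at chr12:79130777-79156301, Slc7a2 at chr8:40862396-40922308, Ass1 at chr2:31470207-31520672, Odc1 at chr12:17544794-17551505 and Kmo at chr1:175620381-175662116, all on the plus strand. RefSeq upstream sequence on GRCm38.p6 was at hand for 5 of the 10 members. The 3 shown were picked as genes with their highest level in a myeloid type other than macrophages, Acod1 (neutrophils), Il4i1 (migratory dendritic cells) and Kmo (conventional and plasmacytoid dendritic cells). Each is the stretch that ends just before the annotated RefSeq transcript start, 5′ to 3′ on the plus strand, at chr14:103046762-103047011 for Acod1, chr7:44836038-44836287 for Il4i1 and chr1:175631943-175632192 for Kmo. The Il4i1 and Kmo stretches lie inside the gene bounds given above, so they precede an internal transcript start and not the first base of the gene. Capitals mark the motif matches.
Acod1: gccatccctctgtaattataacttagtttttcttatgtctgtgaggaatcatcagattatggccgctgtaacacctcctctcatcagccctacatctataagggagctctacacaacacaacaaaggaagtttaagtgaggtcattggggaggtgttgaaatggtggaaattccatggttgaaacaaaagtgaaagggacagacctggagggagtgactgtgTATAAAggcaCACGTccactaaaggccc
Il4i1: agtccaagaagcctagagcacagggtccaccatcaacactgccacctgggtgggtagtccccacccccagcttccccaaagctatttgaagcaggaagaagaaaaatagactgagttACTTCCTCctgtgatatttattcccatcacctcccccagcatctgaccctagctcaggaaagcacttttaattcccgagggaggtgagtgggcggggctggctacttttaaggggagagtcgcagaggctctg
Kmo: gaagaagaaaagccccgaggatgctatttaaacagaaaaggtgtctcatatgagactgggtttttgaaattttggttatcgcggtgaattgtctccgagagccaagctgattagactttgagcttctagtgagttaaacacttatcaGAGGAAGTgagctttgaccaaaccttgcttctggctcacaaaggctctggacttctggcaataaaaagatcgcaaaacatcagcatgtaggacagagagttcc
In all, 7 motifs were searched on both strands. In the Acod1 stretch the letters TATAAA lay 28 bases before the start, and the hypoxia response core ACGTG lay on the opposite strand at 18 bases before it. TATAAA was found in 12.4% of all 32851 upstream stretches of that length and ACGTG in 16.6%. The Il4i1 and Kmo stretches each held GAGGAAGT, the letters searched for as the site of the myeloid factor PU.1, as did 2.44% of all stretches. It lay 133 bases before the start on the opposite strand in Il4i1 and 103 bases before it on the same strand in Kmo. Shorter forms of this site were not searched for. TTGCNNAA (C/EBP, 9.56% of stretches), TTCNNNGAA (STAT, 7.02%), the interferon response element (2.98%) and the NF-κB consensus (7.25%) were not among the letters of these 3 windows. The Ass1 window, not shown although Ass1 too was highest in dendritic cells, held ACGTG at 35 bases before the start on the same strand and at 36 on the opposite one. A match is a description of letters and no evidence of binding.

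The control library kept 5292 of 6115 cells with a median of 4170 UMIs, and 4506 of 5536 cells were kept after NK cell depletion, with a median of 4893. Clustering with the 10 members left out gave 19 clusters, of which 10 were called monocyte/macrophage-like from marker genes and held 3570 control and 3209 NK cell-depleted cells. Among NK-like cells, 568 came from the control library and 20 from the other, and the 10 NK marker genes gave 19385 and 926 UMIs in all, 775 of the latter from Klrk1. The libraries shared 7 cell barcodes, 5 of them among the kept cells.

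Arg1 was by far the most abundant member, and nearly all of it was in macrophages. Monocyte/macrophage-like cells held 32240 of its UMIs, 99.5% of the total (99.4% to 99.5%). Their level was 825 CPM, the UMIs of the gene per 1000000 UMIs of all genes in the same cells, and 34.5% of them had at least 1 Arg1 UMI (median depth 5319 UMIs), against 1.24% of T-like cells (median depth 2210 UMIs), a type not known for arginase 1. With every cell thinned to 2000 UMIs the shares were 28.9% and 0.803%. Over both libraries Arg1 was below 40 CPM in every other named class, and none was counted in B-like cells.

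**Figure D1:**
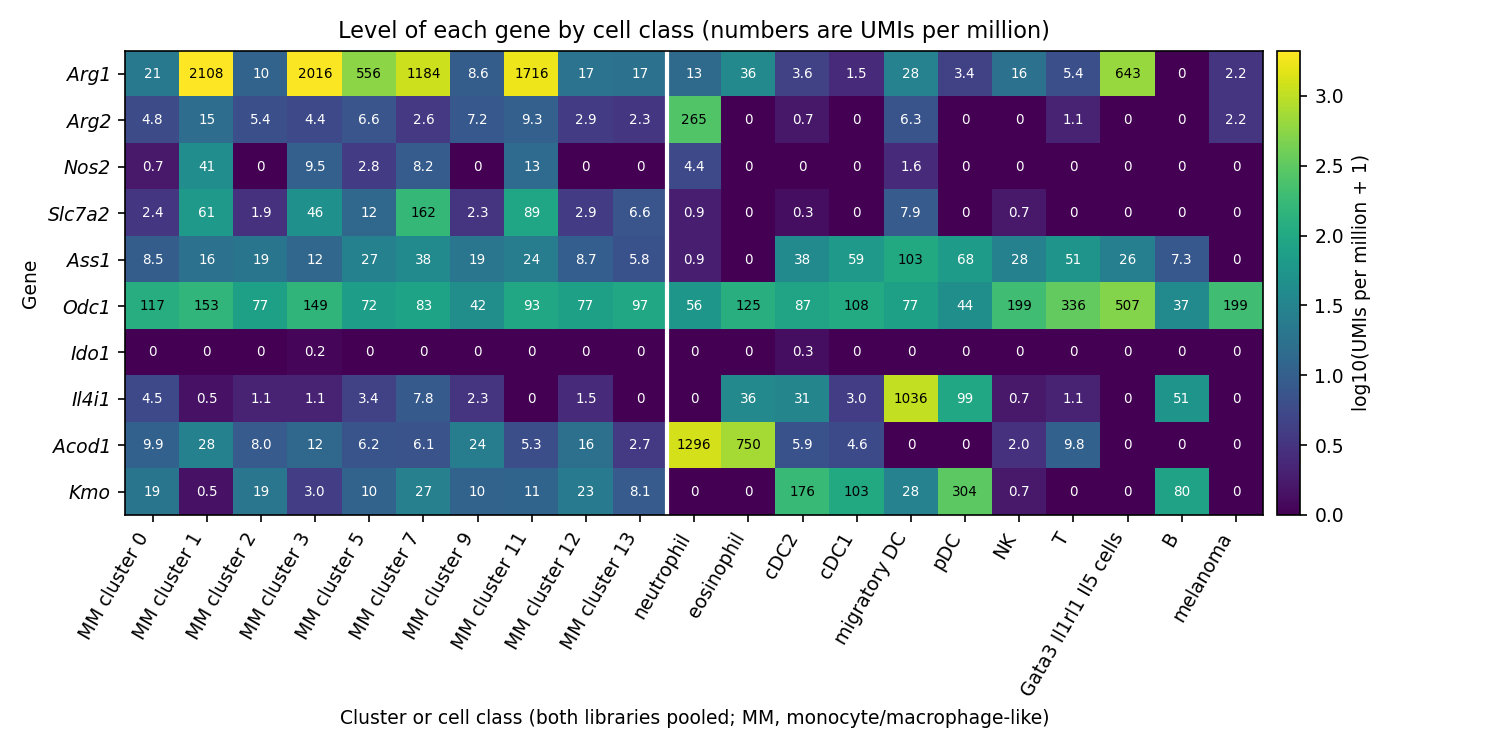
Level of each of the 10 genes (rows) in the 10 monocyte/macrophage-like (MM) clusters and 11 other cell classes (columns), as CPM over both libraries; colour is log10 of the level plus 1. Arg1 stands out in MM clusters 1, 3, 11, 7 and 5 and in the Gata3 Il1rl1 Il5 cells, Acod1 and Arg2 in neutrophils, Il4i1 in migratory dendritic cells and Kmo in plasmacytoid and type 2 conventional dendritic cells, while Ido1 is near 0 throughout.

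Within the macrophages Arg1 split the clusters into a high set of 5 and a low set of 5, with no cluster between. It reached 2108 CPM in cluster 1 (led by Gpnmb, Mmp13 and Ctsk), 2016 in cluster 3 (Pf4, Itga9 and Ms4a7), 1716 in cluster 11 (the heat shock genes Hsph1 and Hspa1b with Retnla), 1184 in cluster 7 (Dcstamp, Slc7a2 and Mgl2) and 556 in cluster 5 (Havcr2, Hes1 and Htra3). The other 5 clusters lay between 8.58 and 20.9 CPM, a range that includes the 16.2 counted in NK-like cells. They were cluster 0 (Ccl8, Lyve1 and Gas6), the Ly6c2 Vcan monocytes of cluster 2, the Ace Adgre4 monocytes of cluster 9, the Ddx60 Irf7 cells of cluster 12 and the Retnla Il6 Aldh1a2 cells of cluster 13. Levels in clusters 1 and 3 lay close together, at 2064 to 2152 and 1982 to 2051 CPM by counting intervals that did not overlap. The high clusters were not uniform. In cluster 7 of the control library the median cell had 0 Arg1 UMIs and the highest cell in either library, with 229, was there.

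A second source of Arg1 was a set of 68 lymphoid cells split from the T-like cluster. These cells were led by Csf2, Gata3, Il5 and Il1rl1 and matched no list of markers, so they are left unnamed. Gata3 was found in 64 of them and Il1rl1, the IL-33 receptor, in 61, whereas Cd3e was found in 1. Arg1 was found in 44 of the 68 cells (64.7%, 52.2% to 75.9%), at 643 CPM. In the 44 cells with Arg1, the macrophage genes Apoe and C1qa had 0 UMIs and Lyz2 had 2. Over both libraries the 68 cells together held the highest Odc1 level of any class, 507 CPM, and the 44 cells with Arg1 had 372 CPM. By library the Odc1 level was 327 CPM in control (22 UMIs), below the 384 of control T-like cells. It was 646 CPM in the NK cell-depleted library (56 UMIs, 16 of them in 1 cell without an Arg1 UMI). Of the 68 cells, 31 were in the control library, with 63 Arg1 UMIs, and 37 in the NK cell-depleted library, with 36.

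Arg1 was higher in control than in NK cell-depleted monocyte/macrophage-like cells when each class was taken whole. The control library gave 1075 CPM (21537 UMIs) and the NK cell-depleted library 563 (10703 UMIs), a ratio of 1.91 (1.87 to 1.96). Within the high clusters the 2 libraries were much closer. The control and NK cell-depleted levels were 2303 and 1721 CPM in cluster 1 (1.34-fold, 1.28 to 1.40), 1964 and 2112 in cluster 3 (0.930-fold, 0.897 to 0.964), 1805 and 1553 in cluster 11 (1.16-fold), 1148 and 1261 in cluster 7 (0.910-fold) and 598 and 469 in cluster 5 (1.27-fold). Thus 3 of the 5 high clusters were higher in control and 2 were lower, each beyond counting error, and none by 1.5-fold. Without the 5 richest cells of each library cluster 3 was within counting error (0.973-fold, 0.937 to 1.01) and cluster 5 reached 1.5-fold. In cluster 5 those cells held 19.8% of the control and 32.8% of the NK cell-depleted Arg1 UMIs, so leaving out equal numbers of cells weighs unequally on the libraries. The clusters also differed in size. The 5 high clusters made up 67.5% of control monocyte/macrophage-like cells (65.9% to 69.0%) and 37.3% of NK cell-depleted ones (35.6% to 39.0%). Clusters 1 and 3 were the largest in control (19.2% and 15.4%), and clusters 0 and 2 in the NK cell-depleted library (22.0% and 18.3%). Pooled, the high clusters had Arg1 at 1575 CPM in control and at 1525 CPM after NK cell depletion, with 61.5% and 61.4% of cells positive. With every cluster given the same weight in both libraries, the control level was 839 and the NK cell-depleted level 799 CPM, a log2 ratio of 0.07 in place of 0.93. The limit between high and low sets, 100 CPM over both libraries, was set after the levels were seen. In pooled tumors the share of a cell type among sorted cells and its number per tumor cannot be told apart.

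**Figure D2:**
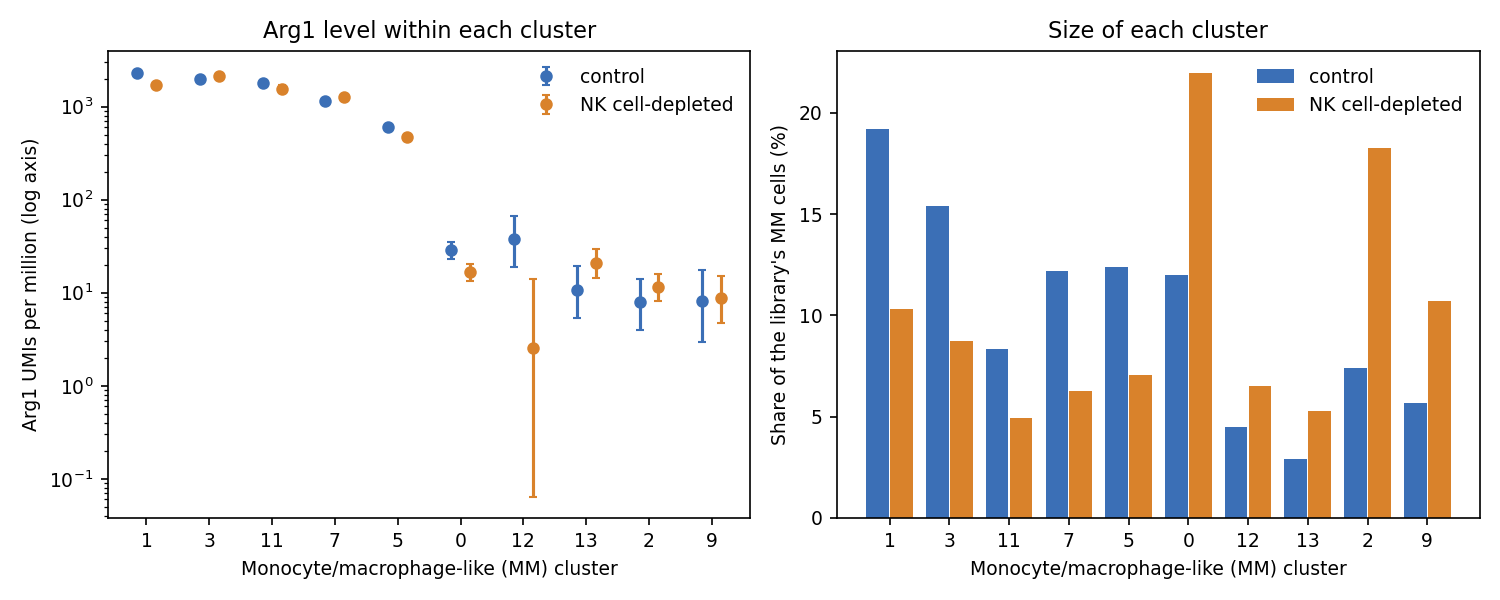
Left, Arg1 level (CPM, log axis) in each of the 10 monocyte/macrophage-like clusters in the control and NK cell-depleted libraries, with 95% counting intervals; right, the share of each library's monocyte/macrophage-like cells in each cluster. The 5 clusters with high Arg1 lie within 1.34-fold of each other between libraries, and together hold 67.5% of the control cells and 37.3% of the NK cell-depleted cells.

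Arg2 was mainly a neutrophil transcript. Neutrophil-like cells held 301 of its 532 UMIs (56.6%), at 265 CPM, and 25.1% of them had an Arg2 UMI at a median depth of 1224 UMIs, against 0.248% of T-like cells at 2210. Monocyte/macrophage-like cells had 5.71 CPM. Neutrophil-like cells had 13.2 CPM of Arg1 over both libraries, against 16.2 in NK-like cells, but the libraries differed. In control the 2 levels were 28.7 (14 UMIs) and 11.4 CPM (16 UMIs). In the NK cell-depleted library they were 1.54 (1 UMI) and 94.5 CPM (8 UMIs, all in 1 of 20 cells). The level of Arg2 in neutrophil-like cells was lower in control, 190 CPM (93 UMIs), than in the NK cell-depleted library, 320 (208 UMIs), a ratio of 0.595 (0.461 to 0.763), and it was 0.560 without the 5 cells with most Arg2 UMIs in each library. The same direction was seen in monocyte/macrophage-like cells at much lower levels, 4.94 against 6.52 CPM (0.758-fold, 0.576 to 0.995).

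Nos2 was sparse and sat mainly in the same clusters as Arg1. The 2 libraries gave 317 UMIs, 311 of them (98.1%) in monocyte/macrophage-like cells, where 2.24% of cells had one. No Nos2 UMI was counted in T-like, B-like or NK-like cells, and 0 of 588 NK-like cells (median depth 2103 UMIs) allows a share of cells with a captured UMI of up to 0.510%. Cluster 1 held 56.9% of the macrophage UMIs, cluster 3 held 19.6% and cluster 7 held 15.4%. The level was 41.4 CPM in cluster 1, 13.3 in cluster 11 (10 UMIs), 9.53 in cluster 3 and 8.17 in cluster 7. The neutrophil-like cluster 16 had 37.7 CPM, from 4 UMIs in 88 cells (10.3 to 96.5). Clusters 2, 9, 12 and 13 had none. Taken whole, the class had 9.83 CPM in control (197 UMIs) and 5.99 in the NK cell-depleted library (114 UMIs), a ratio of 1.64 (1.30 to 2.08). Within clusters there was no common direction. Control was 1.28-fold the NK cell-depleted level in cluster 1 (0.919 to 1.82), 0.285-fold in cluster 3 (0.160 to 0.495) and 0.793-fold in cluster 7 (0.428 to 1.51). Few cells set these ratios. Without the 5 richest cells of each library cluster 1 was at 1.94-fold (1.20 to 3.26) and cluster 3 at 0.414-fold, with an interval that includes 1 (0.163 to 1.02). Cluster 7 was then at 0.338-fold (0.0845 to 1.24, 5 and 7 UMIs), and 1 cell of cluster 3 in the NK cell-depleted library held 14 of its 40 UMIs. This step took unequal shares of Nos2 from the libraries. They were 33.1% of control and 56% of NK cell-depleted UMIs in cluster 1, and 83.3% and 61.1% in cluster 7. At equal cluster weights the log2 ratio over the class was -0.14 in place of 0.71.

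Slc7a2, the transporter, was like Arg1 a macrophage transcript, but it gave 0 UMIs in the Gata3 Il1rl1 Il5 cells. Monocyte/macrophage-like cells held 1666 of its 1674 UMIs (99.5%). Cluster 7 alone had 57.1% of these and a level of 162 CPM, followed by 89.2 in cluster 11, 61.3 in cluster 1 and 45.9 in cluster 3, and the low-Arg1 clusters had 6.58 or less. Over the class the libraries gave 44.0 (control, 882 UMIs) and 41.2 CPM (NK cell-depleted, 784 UMIs), a ratio of 1.07 (0.969 to 1.18). Inside the clusters that held most of it, the NK cell-depleted library was higher in 4 of 4. Control and NK cell-depleted levels were 139 and 210 CPM in cluster 7 (0.661-fold, 0.580 to 0.754), 62.0 and 139 in cluster 11 (0.446-fold), 54.2 and 75.2 in cluster 1 (0.721-fold, 0.560 to 0.931) and 19.8 and 94.1 in cluster 3 (0.210-fold, 0.161 to 0.272). In cluster 3, 8.38% of 549 control cells and 20.3% of 281 NK cell-depleted cells had an Slc7a2 UMI, at median depths of 7015 and 7533 UMIs. Leaving out the 5 richest cells of each library left cluster 3 at 0.239-fold, cluster 7 at 0.690-fold and cluster 11 at 0.483-fold. Cluster 1 was then at 1.04-fold (0.749 to 1.47). Its 5 richest cells held 26.6% of the control and 50% of the NK cell-depleted Slc7a2 UMIs. The step thus took more from the library with fewer positive cells (60 and 37) and cannot decide for cluster 1. In clusters 0 and 5, with little Slc7a2, the direction was the opposite (13 against 7 and 35 against 4 UMIs). At equal cluster weights the log2 ratio over the class was -0.77 in place of 0.09.

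**Figure D3:**
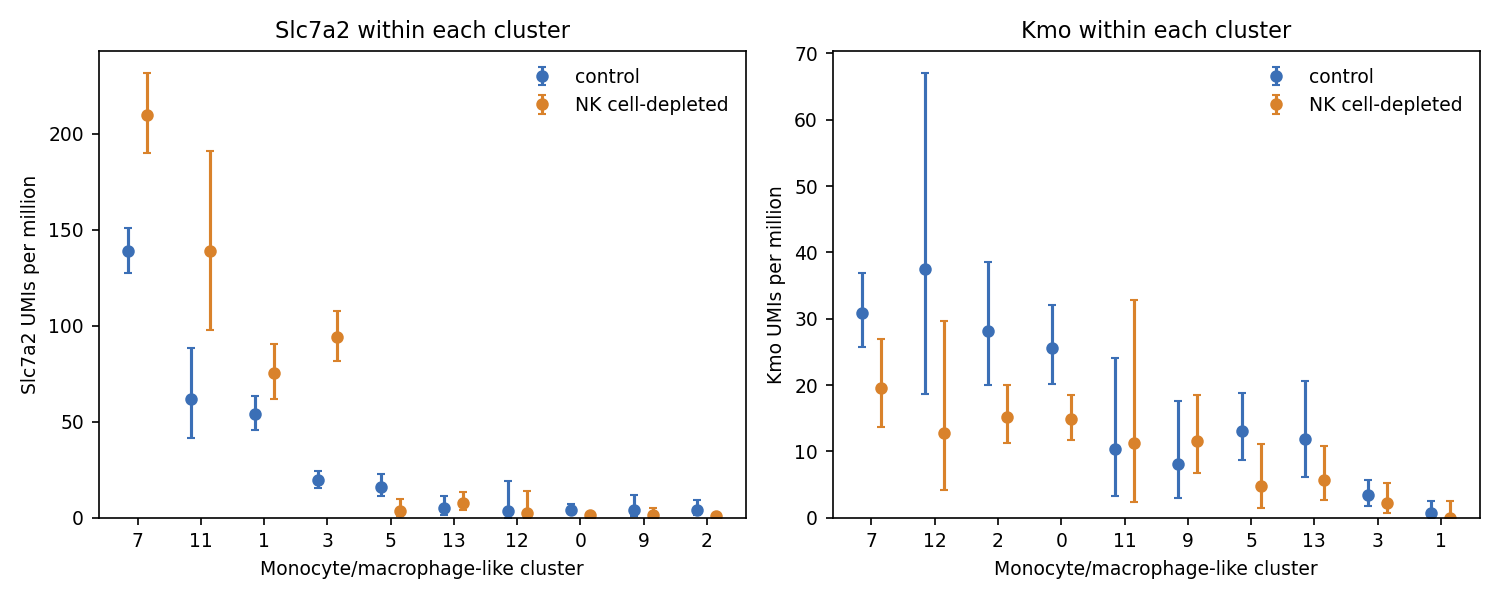
Level of Slc7a2 (left) and Kmo (right) in CPM in each monocyte/macrophage-like cluster of the control and NK cell-depleted libraries, with 95% counting intervals; clusters are ordered by level over both libraries. Slc7a2 is lower in control in clusters 7, 11, 1 and 3, and Kmo is higher in control in clusters 7, 2, 0 and 5.

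Ass1 and Odc1 were the most widely spread members. Ass1 was highest in migratory dendritic-like cells, at 103 CPM, followed by 68.2 in plasmacytoid, 59.3 in type 1 conventional dendritic-like and 51.1 in T-like cells, with 17.8 in monocyte/macrophage-like cells and 1 UMI among 904 neutrophil-like cells. The intervals of migratory and plasmacytoid dendritic-like cells overlapped (79.1 to 131 and 41.7 to 105), as did those of the next classes. Odc1 was counted in every class, from 36.6 CPM in B-like cells to 336 in T-like and 507 in the Gata3 Il1rl1 Il5 cells. Monocyte/macrophage-like cells had 106, and the range over their clusters was 42.5 to 153. In that class control and NK cell-depleted levels of Ass1 came from 420 and 274 UMIs (1.46-fold, 1.25 to 1.70), and those of Odc1 were 108 and 103 CPM (1.05-fold, 0.987 to 1.12). Of the 7 clusters with enough Ass1 UMIs, 1 was higher in control beyond counting error (cluster 0, 1.82-fold, 1.11 to 2.97) and 6 were within it. Without the 5 richest cells of each library cluster 0 was within it (1.28-fold, 0.697 to 2.31) and cluster 7 was higher beyond it (1.51-fold, 1.06 to 2.19).

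Ido1 was hardly detected. It gave 2 UMIs in 9798 cells, both in the NK cell-depleted library, 1 in a cluster 3 macrophage and 1 in a type 2 conventional dendritic-like cell. Ido1 was found in 0 of 109 migratory dendritic-like cells and in 0 of 85 type 1 conventional dendritic-like cells, types known to be able to make it. These counts allow shares of cells with a captured Ido1 UMI of up to 2.75% and 3.53%, and set no limit on the share of cells that express the gene. In control monocyte/macrophage-like cells, 0 UMIs in 3570 cells allows a level of up to 0.150 CPM. No comparison of Ido1 between libraries, clusters or partner genes could be made at this depth.

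The other tryptophan enzymes had their highest levels in dendritic cells. Il4i1 had 657 of its 910 UMIs (72.2%) in 109 migratory dendritic-like cells, the cells marked by Fscn1, Ccr7 and Ccl22, where 73.4% of cells had it (median depth 5436 UMIs) at 1036 CPM. T-like cells had it in 0.248% of cells. Plasmacytoid dendritic-like cells were next at 98.9 CPM, but 93.1% of their 29 UMIs came from 5 cells. Control and NK cell-depleted migratory dendritic-like cells had 1050 and 1019 CPM, from 61 and 48 cells (1.03-fold, 0.881 to 1.21), fewer in the latter than the 50 cells asked for elsewhere. Kmo was highest in plasmacytoid dendritic-like cells at 304 CPM, then 176 in type 2 and 103 in type 1 conventional dendritic-like cells and 80.5 in B-like cells, with no overlap between the intervals of the first 3. It was found in 56.5% of type 2 conventional dendritic-like cells (median depth 5710 UMIs) and in 0 of 404 T-like cells. Type 2 conventional dendritic-like cells had a Kmo level of 196 CPM in control and 162 CPM after NK cell depletion (1.21-fold, 1.02 to 1.44), which was within counting error without the 5 richest cells (1.16-fold, 0.961 to 1.39). Its subclusters differed in size between the libraries, where the subcluster led by Ddr1 and Bcl11a held 109 and 205 cells and the one led by Ifitm1 and Cdh1 held 124 and 81.

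In monocyte/macrophage-like cells Kmo was low, 13.5 CPM, yet it was the member with the largest share of clusters higher in control beyond counting error. The whole class had 15.8 CPM in control (317 UMIs) and 11.1 in the NK cell-depleted library (211 UMIs), a ratio of 1.43 (1.19 to 1.71). Of 6 clusters with enough UMIs, 4 were higher in control beyond counting error and 2 were within it. The control and NK cell-depleted levels were 25.6 and 14.8 CPM in cluster 0 (1.73-fold, 1.25 to 2.39), 28.2 and 15.2 in cluster 2 (1.86-fold, 1.19 to 2.89), 30.9 and 19.5 in cluster 7 (1.58-fold, 1.09 to 2.35) and came from 28 and 5 UMIs in cluster 5 (2.75-fold, 1.05 to 9.10). Without the 5 richest cells of each library the first 3 were 1.70-fold, 1.86-fold and 2.36-fold. At equal cluster weights the log2 ratio was 0.77, above the 0.51 of the whole class.

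Acod1 was a granulocyte transcript more than a macrophage one. Neutrophil-like cells held 1474 of its 1999 UMIs (73.7%), at 1296 CPM, and 47.2% of them had it although their median depth was 1224 UMIs. Of T-like cells, at a median depth of 2210 UMIs, 1.73% had it. Eosinophil-like cells (82 cells, median depth 636.5 UMIs) were next at 750 CPM, with 66.7% of their 42 UMIs in 5 cells. Monocyte/macrophage-like cells had 11.5 CPM, and T-like cells had 9.79 (4.48 to 18.6), so over the whole class the level did not stand above that of a cell type that should lack the gene. It did so in cluster 1, at 28.3 CPM (23.5 to 33.8). In cluster 9, at 23.9, the interval (17.9 to 31.3) overlapped that of T-like cells. Neutrophil-like cells had 1479 CPM in control (722 UMIs) and 1158 in the NK cell-depleted library (752 UMIs), a ratio of 1.28 (1.15 to 1.42), and 1.25 without the 5 richest cells. The smaller neutrophil-like cluster 16 (54 and 34 cells) and the larger cluster 4 (358 and 458 cells) both had more in control, 2112 against 1237 and 1382 against 1153 CPM. In monocyte/macrophage-like cells the libraries gave 225 UMIs each, 11.2 and 11.8 CPM. Of 7 clusters with enough UMIs, 1 was higher in control beyond counting error, 2 were lower and 4 were within it. The control level in cluster 1 was 19.4 CPM against 46.0 (0.422-fold, 0.289 to 0.612), cluster 7 had 4.02 and 10.6 (0.381-fold, 0.185 to 0.773, 16 and 20 UMIs) and cluster 2 had 14.4 and 5.26 (2.75-fold, 1.37 to 5.58, 20 and 17 UMIs). Without the 5 richest cells cluster 1 was at 0.588-fold (0.358 to 0.972), cluster 7 at 0.708-fold (3 and 2 UMIs) and cluster 2 at 4.12-fold (7 and 4 UMIs).

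Counted against all genes, 9 of the 10 members had the 20 UMIs in monocyte/macrophage-like cells that a ratio was taken for, and 2 of these 9, Arg1 and Nos2, were at least 1.5-fold higher in control while 0 were 1.5-fold lower. Of all 11901 genes with 20 UMIs, 8.75% were at least 1.5-fold higher in control and 3.66% lower. The median log2 ratio was 0.10 over the 9 members and -0.01 over all genes. In neutrophil-like cells 3 members had enough UMIs, of which Odc1 was past 1.5-fold higher (1.71-fold, 36 and 28 UMIs, and 1.57-fold with an interval of 0.779 to 3.18 without the 5 richest cells) and Arg2 past it lower, with 12.9% of 4869 genes higher and 9.3% lower. In type 2 conventional dendritic-like cells 1 of 4 members was past it, Odc1 at 109 and 71.5 CPM (1.53-fold, 1.20 to 1.96, and 1.48-fold without the 5 richest cells), with 7.66% of genes higher and 7.99% lower. In T-like cells 1 of 2 was past it, Ass1 at 66.6 and 30.5 CPM (2.19-fold, 1.11 to 4.63, 35 and 12 UMIs), with 15.4% of genes higher and 11.3% lower. T-like subclusters differed between the libraries as well, 1 of them with 79 control and 7 NK cell-depleted cells. In melanoma-like cells 0 of 1 were past it (Odc1, 1.33-fold, 0.842 to 2.06), with 8.02% of genes higher and 36.1% lower. The added parental melanoma cells were not told apart from tumor cells here, so these shares cannot be read as a difference between tumors. The filter also left only 121 melanoma-like cells, against 460 with no upper limits.

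**Figure D4:**
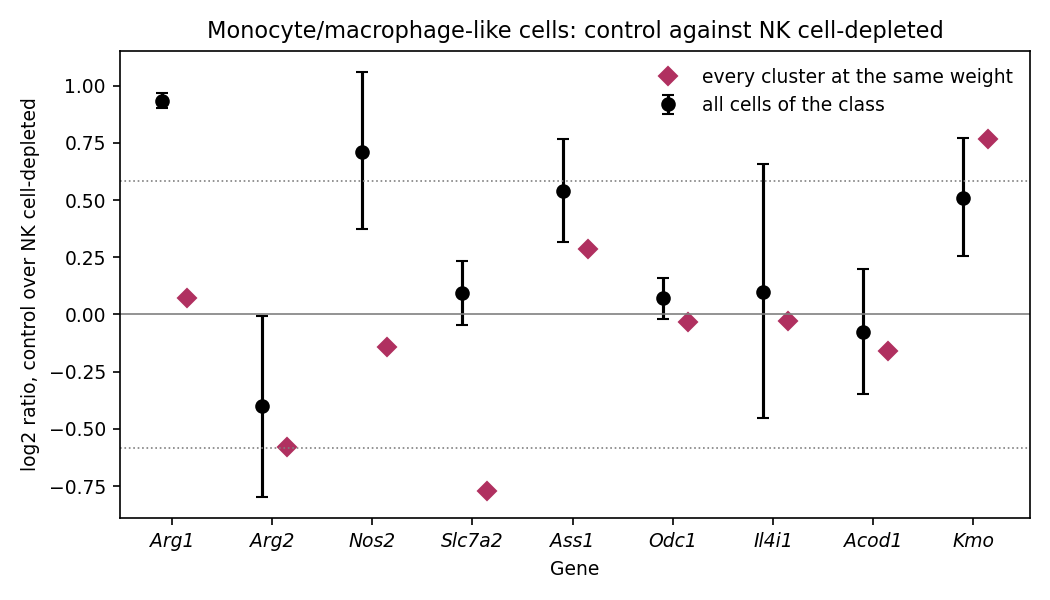
log2 ratio of control over NK cell-depleted level in monocyte/macrophage-like cells for the 9 genes with at least 20 UMIs; circles with 95% counting intervals take the class whole, diamonds give every cluster the same weight in both libraries, and dotted lines mark 1.5-fold. Arg1 moves from 0.93 to 0.07, Nos2 from 0.71 to -0.14 and Slc7a2 from 0.09 to -0.77, while Kmo stays above 0.

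Arg1 and Nos2 were found in the same macrophages. Of the 152 monocyte/macrophage-like cells with a Nos2 UMI, 138 (90.8%) also had Arg1. If the 2 genes were independent within each cluster of each library, 108 such cells would have been found, so the ratio of observed to expected was 1.28 (1.07 to 1.51). It was 1.24 in control (0.995 to 1.53) and 1.35 in the NK cell-depleted library (1.003 to 1.78). All 28 Nos2-positive cells of cluster 3 and all 22 of cluster 7 had Arg1, where 22.1 and 10.9 were expected. The cluster 7 ratio of 2.02 (lower limit 1.27) was beyond counting error, and that of cluster 1 was within it. Shared cells cannot outnumber Nos2-positive cells, so the upper limits here can pass what was possible. In cluster 3 even full overlap stayed within such an interval, which therefore cannot decide there. Arg1 was found in 100% of Nos2-positive and 77.3% of Nos2-negative cells of cluster 3, and in 90.7% and 78.5% in cluster 1. Arg1 was also more abundant where Nos2 was found, at 4062 CPM in the Nos2-positive and 1089 in the Nos2-negative cells of cluster 7, although their median depths were 8713 and 8896 UMIs. In cluster 1 the 2 levels were 3331 and 1986. Cells with deeper counts show more genes of any kind, and with the expectation taken within 4 equal bins of cell depth the ratio was 1.24 (1.04 to 1.47).

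Pair ratios cannot be ranked against each other, since a common gene such as Arg1 leaves less room above 1. Nos2 and Acod1, each rare in macrophages, met in fewer cells than Nos2 and Arg1, but further above the expected number in proportion. They shared 23 cells where 6.61 were expected, a ratio of 3.48 (2.21 to 5.22), 16 of them control cells and 7 from the other library, and 14 of the 23 in cluster 1. The ratio was 2.89 (1.83 to 4.34) within the same bins of depth. For Arg1 and Acod1, 98 cells were shared and 86.9 expected, 1.13-fold (0.916 to 1.37), which is within counting error. The pairs with the transporter lay above 1 as well. Slc7a2 shared 398 cells with Arg1 (1.40-fold, 1.27 to 1.54), 42 with Nos2 (2.06-fold, 1.48 to 2.78) and 29 with Acod1 (1.80-fold, 1.20 to 2.58). In cluster 7, cells with Slc7a2 had 2986 CPM of Arg1 and cells without it 388, at median depths of 9070.5 and 8870 UMIs. Nos2 and Ass1 shared 22 cells (1.80-fold), while Arg1 met Odc1 (1.02-fold) and Arg2 (1.06-fold) within counting error of independence. In neutrophil-like cells, Arg2 and Acod1 shared 119 cells where 106 were expected (1.12-fold, 0.930 to 1.34).

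**Figure D5:**
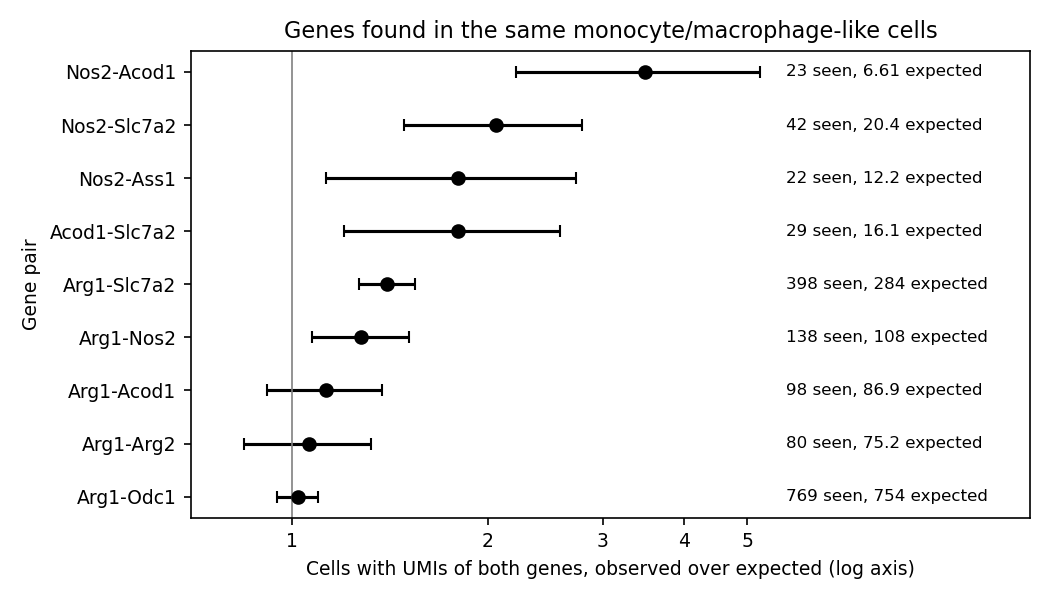
Cells of the monocyte/macrophage-like class with UMIs of both genes, as observed over expected under independence within each cluster and library, for the 9 pairs with 5 or more cells expected (log axis, bars are 95% counting intervals). Nos2 with Acod1 stands highest at 3.48, and Arg1 with Odc1 lies at 1.02. Pairs with a common gene such as Arg1 have a lower ceiling, so the ratios do not rank the pairs.

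The genes whose levels over the 19 clusters ran most like those of the members were found by Pearson's r on log2(CPM + 5), given as a description over clusters that share libraries. For Arg1 the nearest were AU022793 (0.92), Tmem119 (0.91), Epm2a (0.91), the collagenase gene Mmp13 (0.91) and Mgarp (0.91). For Nos2 they were Gm15283 (0.95), Gm16754 (0.94), P4ha1, a prolyl hydroxylase subunit of collagen synthesis (0.92), Rhov (0.92) and Hyal1 (0.91). For Acod1 they were Ptp4a1 (0.97) and the neutrophil genes G0s2 (0.95), Slpi (0.94), Mmp9 (0.94) and Hdc (0.93). Ido1 had too few UMIs for this.

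Around the members, most other genes of the 3 routes were within 1.5-fold between the libraries in monocyte/macrophage-like cells. Over all genes of that class, 8.75% were at least 1.5-fold higher in control and 3.66% lower. Of 25 further genes of arginine and polyamine use, 21 had enough UMIs and 0 were past 1.5-fold in either direction, with a median log2 ratio of 0.10. The largest values were 0.54 for Gatm, which makes the creatine precursor from arginine (110 and 75.9 CPM), and -0.48 for Slc7a1, the widely used arginine transporter (26.4 and 36.7). Slc7a1, unlike Slc7a2, was present in every class and highest in the Gata3 Il1rl1 Il5 cells at 266 CPM. Of 21 genes of tryptophan use and its sensing, 13 had enough UMIs, 1 was higher (Afmid, 19 and 11 UMIs, an interval that includes 1) and 1 lower, the amino acid transporter Slc7a5, at 9.98 and 16.8 CPM (0.593-fold, 0.495 to 0.710). Ido2 and Tdo2, the other enzymes of the first step, gave 0 UMIs and 1 UMI over all cells. Kynu, which acts after Kmo, was like Kmo highest in plasmacytoid dendritic-like cells (78.4 CPM). Next came migratory dendritic-like (39.4), B-like (29.3) and type 2 conventional dendritic-like cells (23.8). Of 22 genes of itaconate's surroundings, 20 had enough UMIs, 3 were higher and 0 lower, with a median of -0.04. The 3 are targets of the oxidative stress factor Nrf2. They were the haem oxygenase gene Hmox1 (1192 and 782 CPM, 1.52-fold), Gclm, of glutathione synthesis (69.7 and 38.2, 1.82-fold), and Nqo1 (18 and 7 UMIs, an interval that includes 1). At equal cluster weights Hmox1 (1014 and 1006 CPM, log2 ratio 0.01), Gclm (58.9 and 49.1, 0.26), Afmid (0.37) and Slc7a5 (-0.50) were not past 1.5-fold, and Nqo1 (0.81) was. The gene of Nrf2 itself, Nfe2l2, had 200 and 284 CPM.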

How the data were processed

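The authors deposited gene-by-cell UMI counts for 2 libraries (10x Genomics 3′ v3 chemistry). Per the file headers they were made with Cell Ranger 3.0.2, whereas the study's methods name another release, and bcl2fastq and the build mm10 are named in the submitters' processing notes. A normalized table of the authors was not used here. Reads come from 3′ ends, so levels are CPM with no length scaling. Cells were filtered as given in the report. Of these, 41 control and 31 NK cell-depleted cells were called doublets and kept. The 2000 most variable genes, without the members, gave 15 principal components, 20 neighbours and Leiden clusters at resolution 1 (scanpy 1.11.5, leidenalg 0.10.2, igraph 0.11.9, scikit-learn 1.9.0). A cluster was named after the marker list with most genes among its 50 leading genes. At least 1 had to be among the first 10, fewer than 2 of any other list there, and at least 3 markers had to be higher than in the other cells. Monocyte/macrophage-like clusters 5 and 13 had 1 marker among the 50, and clusters 7 and 11 had 2. In cluster 7, 3 markers of the list were higher than in the other cells. The mixed dendritic and T-like clusters were split again at resolution 0.5, a choice made after seeing the data. A ratio is control over NK cell-depleted level, taken for genes with 20 UMIs and groups of 50 cells, with 0.5 UMI added on the log2 scale. Intervals are exact binomial or Poisson ones at 95% (scipy 1.17.1, numpy 2.4.6, pandas 2.3.3). PCR duplicates are removed by the UMIs. Floors are 3 counts. Thinning to 2000 UMIs left out 1208 control and 939 NK cell-depleted cells. With 1 library per group no test was made. All 10 members are named, with the 5 genes nearest in pattern to Arg1, Nos2 and Acod1 (among genes with 200 UMIs), and pathway genes past 1.5-fold. Gatm, Slc7a1, Ido2, Tdo2, Kynu, Nfe2l2 and the genes that describe the Gata3 Il1rl1 Il5 cells were chosen after their values were seen. The members and lists were chosen with earlier results of these data known. The scripts were tested on simulated data.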

Additional observations from a re-analysis of the deposited data

Results flagged for a closer look

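Cells with more UMIs or genes than the filter allowed entered no comparison, yet held transcripts of every member but Ido1 above the 3 counts that a count of 0 allows. In 212 such control cells Arg1 gave 1416 UMIs, Nos2 8 and Acod1 11. In 353 such NK cell-depleted cells Arg1 gave 1159 UMIs, Nos2 8 and Acod1 17. Odc1 gave 1089 UMIs in these control cells and 1800 in these NK cell-depleted cells, Slc7a2 gave 113 and 190, and Ido1 gave 0 in both. With no upper limits the melanoma-like class held 460 cells (median depth 24009.5 UMIs), against 121 cells (median depth 1907 UMIs) with them. Whether the cells above the limits are large cells or droplets with more than 1 cell was not tested.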

How the results depend on the processing

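No paired analysis was possible because each group is 1 library, and for the same reason no replicate could be left out. The ratios below are log2, control over NK cell-depleted, in monocyte/macrophage-like cells. With at least 2000 UMIs and at most 5% mitochondrial UMIs, Arg1 was 1.04 and Acod1 -0.42, and the class held 77.1% of Arg1, 84.7% of Nos2 and 88.3% of Acod1 UMIs, since this filter left no neutrophil-like class and 544 cells unnamed. At Leiden resolution 2, with 582 cells unnamed, Arg1 was 1.08 and the shares were 94.0% of Arg1 and 94.6% of Nos2. Calling cells one by one put 2640 cells in the class and gave 1.13 for Arg1, 1.21 for Nos2, 0.42 for Acod1 and -0.16 for Ass1, a reversal, with shares of 44.8%, 42.9% and 7.05% for Arg1, Nos2 and Acod1, and pair ratios of 2.12 for Arg1 with Nos2 and 6.60 for Nos2 with Acod1. The Arg1 share was 98.8% with no upper limits, 99.2% with the members kept in the clustering and 99.5% after subtracting the level in T-like and B-like cells. That subtraction took Acod1 to -2.21 and its share to 7.60%. Without the top 5% of Scrublet scores Arg1 was 0.98 and the Acod1 share 18.4%. Thinned, Arg1 was 1.04 and Acod1 0.21. With every cluster at the same weight Arg1 was 0.070 and Nos2 -0.14, a reversal. With every cluster at weight 1, chosen after seeing the data, Arg1 was 0.14, Nos2 0.0078 and Acod1 0.27. Within libraries alone, the pair ratios were 2.48 for Arg1 with Nos2 and 1.41 for Arg1 with Acod1. Without the 5 richest cells, also chosen after seeing the data, Slc7a2 in cluster 1 (0.056) and Il4i1 in cluster 0 (0.38) reversed. Genes past 1.5-fold numbered 3175 higher and 1913 lower with no minimum of UMIs, and 435 and 258 with at least 100. Except where a clause above names it, the cause was not tested. Ido1, with 2 UMIs, could give no ratio or pair under any setting. Arg1 stayed higher in control under every alternative, but by 0.070 to 1.13.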
